A study of Mus musculus with 11 samples.

Results

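The occupancy of PU.1 was examined in murine erythroleukemia (MEL) cells, an established mouse line of transformed erythroblasts, by chromatin immunoprecipitation followed by sequencing (ChIP-Seq). Every MEL library came from a single line, clone DS19 by the study's methods and clone 4 by the labels, that carries a stable GATA-1 fusion to the estrogen receptor ligand-binding domain (GATA-1/ER), and the cells were cultured with serum and puromycin. All 5 MEL samples were taken of the 11 samples in the series. They are 4 PU.1 ChIP libraries, made with antibody T-21 (Santa Cruz) from 2 independent chromatin preparations, and 1 input library of chromatin DNA that was not immunoprecipitated. The letter in the sample titles (A or B) was taken here as the preparation and the number as one of its 2 libraries, which the labels do not state, and every comparison of A with B rests on this reading. Under it, the libraries of a preparation show technical spread. Since the line, the clone and the input are single, no result here measures how other MEL clones or other input libraries would vary. These libraries hold no expression data, and the erythroid identity of the cells was not checked from them.

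PU.1 is encoded by Sfpi1 and belongs to the Ets family of DNA-binding proteins. Macrophages, granulocytes and B lymphocytes do not form properly without it. It recognises a purine-rich DNA word around a GGAA core, binds both at promoters and at distal elements, and activates many myeloid and B cell genes. In erythroid progenitors PU.1 opposes terminal differentiation, and in murine erythroleukemia the Sfpi1 locus is a known site of retroviral insertion that keeps PU.1 expressed.

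Each ChIP library held between 2064597 and 4251805 aligned reads and the input held 4290388. Reads that repeated the position and strand of another read made up 9.0% and 3.75% of the libraries of preparation A, 8.59% and 4.35% of those of B, and 1.59% of the input, so that this share went by library number and not by letter. Values below count every read whose 5′ end, moved 70 bp toward the middle of its fragment, lay in a 500 bp window, while for calls reads of a library with an equal position and strand were counted once. Levels are given as RPM, the reads per 1000000 reads of a preparation or library. A bin of 500 bp was called occupied when a one-sided exact Poisson test against the depth-scaled input gave a Benjamini-Hochberg adjusted p below 0.05 in preparation A and in preparation B. This test compares these libraries, not conditions. Touching occupied bins were joined to a site, and a site no more than 2 kb from a transcription start (TSS) of a protein-coding gene is called a promoter site, while all others are called distal. A ratio to input given for a single promoter or site pools the reads of A and B, scaled by total reads. Intervals are exact at 95% and cover counting error only, not the spread between the preparations.

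Sequences of occupied sites show how the PU.1 word lies at a summit. Below are 120 bases around the summits of 4 strong distal sites that had few input reads, followed by sites at genes of interest. They are read on the plus strand of NCBIM37 (mm9), and capitals mark the copy nearest the summit of the PU.1 word GAGGAAGT or its reverse complement, or at Sfpi1 of the GGAA core. A further copy of the word at Tbc1d14 is left in lower case. The 4 distal sites and the intronic sites were chosen for display after their values were seen. Every site shown except that of Sfpi1 holds GAGGAAGT, which 46.1% of distal sites hold, and strong sites of few input reads without it, such as those near Trpv4 and in Tmem56, are not shown.
Osbpl6 intron (chr2:76380041-76380160): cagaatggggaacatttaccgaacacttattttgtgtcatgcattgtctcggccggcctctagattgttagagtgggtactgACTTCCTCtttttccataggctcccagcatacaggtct
Upstream of Mlana (chr19:29750061-29750180): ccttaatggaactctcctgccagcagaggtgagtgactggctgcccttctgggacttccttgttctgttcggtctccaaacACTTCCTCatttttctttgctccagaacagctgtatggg
Tbc1d14 intron (chr5:36905861-36905980): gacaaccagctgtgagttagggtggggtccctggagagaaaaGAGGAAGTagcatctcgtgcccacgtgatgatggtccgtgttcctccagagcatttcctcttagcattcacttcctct
Upstream of Alox5ap (chr5:150057691-150057810): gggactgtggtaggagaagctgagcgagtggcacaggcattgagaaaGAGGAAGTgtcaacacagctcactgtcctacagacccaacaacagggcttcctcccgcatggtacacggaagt
Fli1 intron (chr9:32280101-32280220): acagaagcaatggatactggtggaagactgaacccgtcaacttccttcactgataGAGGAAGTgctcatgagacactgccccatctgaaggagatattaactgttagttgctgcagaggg
Lmo2 intron (chr2:103805801-103805920): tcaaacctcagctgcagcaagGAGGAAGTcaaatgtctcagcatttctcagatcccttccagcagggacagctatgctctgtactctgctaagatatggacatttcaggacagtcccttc
Btk intron (chrX:131089141-131089260): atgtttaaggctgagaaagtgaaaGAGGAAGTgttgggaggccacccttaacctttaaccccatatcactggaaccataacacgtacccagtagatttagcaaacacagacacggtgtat
Beyond the 3′ end of Dusp6 (chr10:98731461-98731580): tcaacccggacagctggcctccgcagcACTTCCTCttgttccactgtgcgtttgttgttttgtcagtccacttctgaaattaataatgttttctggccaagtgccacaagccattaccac
Sfpi1 intron (chr2:90923181-90923300): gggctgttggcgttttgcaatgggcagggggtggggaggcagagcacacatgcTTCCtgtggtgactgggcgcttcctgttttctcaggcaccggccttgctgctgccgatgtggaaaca

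Of the 7 words searched, the PU.1 word set the distal sites furthest apart from the genome. GAGGAAGT, searched on both strands, lay in 1554 of 3372 distal sites (46.1% of 500 bp windows around the summit) and in 380 of 2260 promoter sites (16.8%). The same word lay in 4.27% of all promoters and in 2.97% of 500 bp windows taken every 10 kb along the genome. It sat at the summit: 14% and 13.9% of distal sites had it in the 25 bp just to either side of the summit, and 0.237% had it in the 25 bp centred 137.5 bp away on the side of higher coordinates. The word that other ETS factors prefer, CCGGAAGT, was in 0.652% of distal and 9.29% of promoter sites against 0.299% of genome windows and 5.76% of all promoters. AGATAA, the GATA factor word, was in 33.8% of distal sites and in 29.9% of genome windows. GGGCGG, the Sp1 word, was in 75.8% of promoter sites, 52.7% of all promoters and 11.4% of distal sites. The AP-1 word TGACTCA was in 10.4% of distal sites against 7.65% of genome windows, the NF-Y word CCAAT was in 48.0% against 57.3%, and the E2F word TTTCGCGC was in 0.885% of promoter sites against 0.581% of all promoters. Promoter sites were searched around the summit and all promoters around the TSS. Around the TSS of the 2860 promoters called occupied below, GAGGAAGT lay in 7.87%, CCGGAAGT in 12.1%, GGGCGG in 87.3% and TTTCGCGC in 1.08%. A match is a description of letters in a window. Median GC content was 67% in the windows of promoter sites and 45.8% in those of distal sites, and its part in these shares was not tested.

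**Figure D1:**
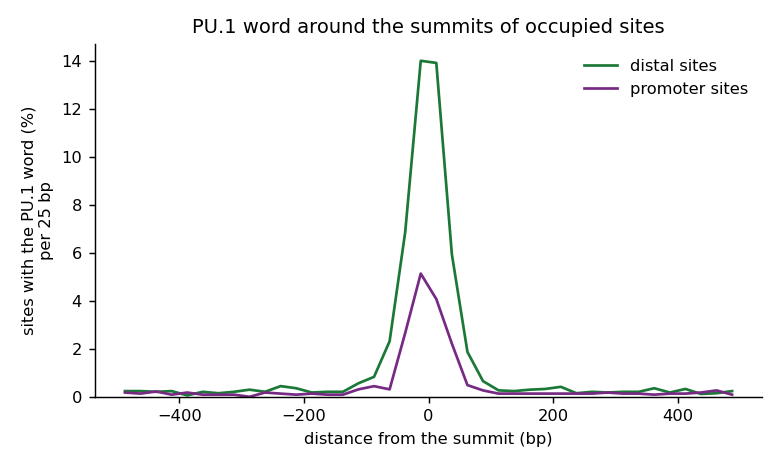
Share of occupied sites (%, y axis) with the PU.1 word GAGGAAGT on either strand in each 25 bp step from the summit (bp, x axis), for 3372 distal and 2260 promoter sites. The share at distal sites reaches 14% beside the summit, and the curve of promoter sites peaks at the same place at a lower height.

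The bases beside the word were also biased at occupied sites. Among 1577 words within 100 bp of a distal summit, read with the word in its GAGGAAGT orientation, the bases just before it were A in 66.3%, 78.9% and 72.8% at the positions 1, 2 and 3 bases upstream, against 37.5%, 35.6% and 31.6% of 159452 words in the genome. The base just after it was G in 64.4% of occupied words against 33.7% of all words. C directly before the word was found in 0.634% of occupied and 2.92% of all words. In the sequences printed above, the words at Btk and Alox5ap are preceded by AAA and followed by G. Most copies of the word were not occupied: of 156165 bins that hold GAGGAAGT, 1937 (1.24%) were called in both preparations, against 0.0794% of 5153637 bins without it.

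Signal strength and the word were not ordered together among distal sites. The distal sites were ranked by the excess of RPM over input in the weaker preparation and divided into 4 groups of 843. Their median level in preparation A was 7.02, 3.86, 2.63 and 1.93 RPM from the strongest to the weakest group. GAGGAAGT lay in 47.7%, 45.1%, 46.3% and 45.3% of these groups in the same order.

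Across the genome, preparation A called 7635 of 5309802 bins (0.144%), preparation B called 19061 (0.359%), and 6031 (0.114%) were called in both. These joined to 5632 sites, of which 5274 were a single bin. The median site held 19 reads in A, 29 in B and 2 in the input, and 1164 sites had no input read. When the input was tested as if it were the ChIP, 72 bins passed against both preparations. Without library A2 1999 bins were called in both preparations, and without library B2 3697 were.

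Occupied sites lay near genes more often than bins do. Promoter sites made up 2260 of 5632 sites (40.1%), against 4.22% of all bins. A further 210 sites (3.73%) lay within 2 kb of the 3′ end of a gene, 1451 (25.8%) lay in gene bodies and 1711 (30.4%) lay between genes, where the shares of all bins were 3.61%, 31.8% and 60.4%. The 3372 distal sites lay a median of 23905 bp from the nearest TSS, with quartiles of 9555 and 65094 bp, and 566 of them were over 100 kb away. A total of 2443 genes had a site within 2 kb of a TSS.

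GC content moved with these calls. In bins of at least 65% GC the ratio of ChIP to input reads, scaled by total reads, was 2.29 and 2.32 in the libraries of A and 3.6 and 4.75 in those of B. In bins of 50 to 55% GC it was 0.758 in A and 0.861 in B, and in bins under 40% GC it was 1.18 and 1.07. Median GC content was 67% at promoter sites, 45.6% at gene body sites and 45.8% at intergenic sites. When the expected reads were scaled by the ratio found in bins of the same GC content, 1104 promoter sites (48.8%) were still called, as were 95% of gene body and 92.7% of intergenic sites, and promoter sites fell to 26.8% of all sites. That ratio was taken over all bins, occupied ones included, so that PU.1 signal itself raises the expected reads. A call lost with this scaling can therefore reflect base composition or removed signal, which cannot be told apart here. The part of GC content in the promoter calls was not tested, and beside each promoter group the number that passed with this scaling is given.

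**Figure D2:**
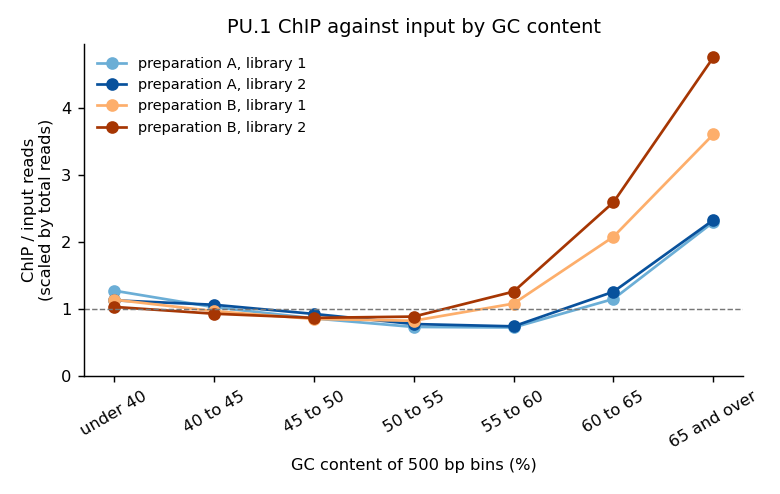
Ratio of ChIP to input reads, scaled by total reads (y axis), in 500 bp bins grouped by GC content (%, x axis), for each PU.1 library. All 4 libraries rise in the bins of at least 65% GC, where the libraries of preparation B reach 3.6 and 4.75 and those of A 2.29 and 2.32, and the dashed line marks a ratio of 1.

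Promoters were next counted in the 500 bp centred on a TSS, with each gene represented by the TSS that most of its transcripts share. Of 22359 genes, 2993 (13.4%) passed in preparation A, 8214 (36.7%) in B and 2860 (12.8%) in both, and these 2860 are called occupied promoters. With GC-scaled expected reads 1019 (4.56%) passed in both. Over occupied promoters the mean level in the 100 bp just upstream of the TSS was 0.884 RPM in A, 1.64 in B and 0.156 in the input, and 2950 bp upstream it was 0.0616, 0.0625 and 0.0619. Over promoters that were not occupied it was 0.114 in A, 0.229 in B and 0.112 in the input. The promoters not occupied include those that passed in A or in B alone, so that the level of B there is partly set by the calls. In the 100 bp centred 150 bp downstream of the TSS the levels over these promoters were 0.139 in A, 0.269 in B and 0.110 in the input. With limma, which asks for agreement of the preparations against an input that is assumed to vary like them, 57 promoters (0.255%) passed, and all 57 are among the 2860. Without library A2 1189 promoters were occupied.

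**Figure D3:**
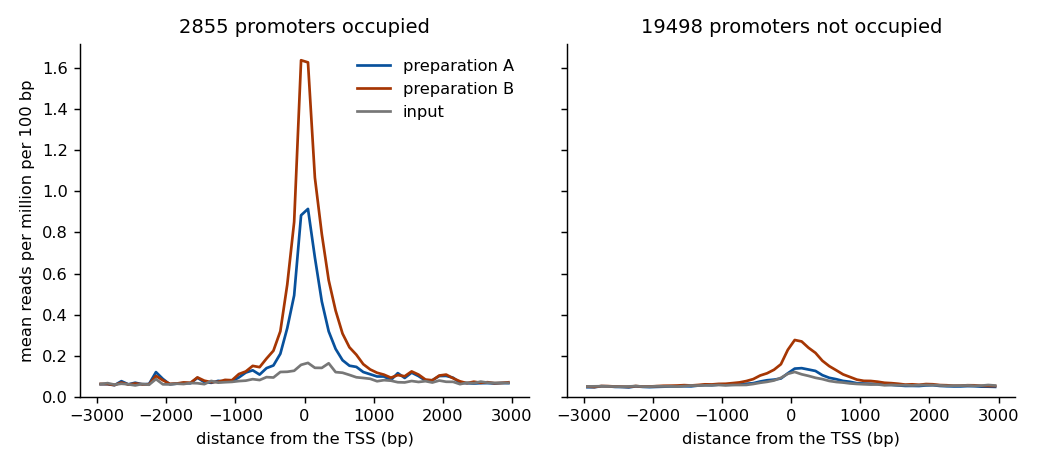
Mean RPM per 100 bp (y axis) by distance from the TSS (bp, x axis) in preparations A and B and in the input, for 2855 occupied promoters and 19498 promoters not occupied, leaving out 6 promoters with over 50 input reads. At occupied promoters A reaches 0.915 and B 1.64 beside the TSS, where the input is at 0.156 to 0.165.

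CpG-rich and CpG-poor promoters differed in number and in the word. CpG dinucleotides are dense at many promoters of broadly expressed genes. A promoter was called CpG-rich when its window had at least 50% GC and an observed to expected CpG ratio of at least 0.6. Occupied promoters made up 2666 of 10695 CpG-rich promoters (24.9%; 862 with GC scaling) and 194 of 11664 CpG-poor promoters (1.66%; 157 with GC scaling). GAGGAAGT lay in 164 of the 2666 occupied CpG-rich promoters (6.15%) and in 2.23% of the CpG-rich promoters not occupied. In the CpG-poor class it lay in 61 of 194 occupied promoters (31.4%) and in 4.80% of the others. The gene lists below are set against all genes and were not matched in promoter class or GC content. Median GC content over all promoters was 57.2%. It was 54% over the myeloid and B cell list, 61.6% over the ETS family, 59% over the erythroid regulators and 59.2% over ribosomal protein genes.

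The highest promoters included 5 windows where the input itself was high. Ranked by the excess of RPM over input in the weaker preparation, the first 5 were the predicted genes Gm10801, Gm10800, Gm10717, Gm10106 and Gm10716, with 42 to 1137 input reads against a median of 3 at occupied promoters. Only 38 of 2860 occupied promoters had over 10 input reads. Gm11168, Gm10722 and Sfi1, at ranks 13, 14 and 20, were also among them, with 37, 47 and 79 input reads. The part of the high input in these 5 calls was not tested, and in the next 7 promoters of the rank the input had 2 to 9 reads.

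The strongest of those 7 was the promoter of Slc22a15, a member of the organic ion transporter family, with 144 and 226 reads in the libraries of A, 333 and 655 in those of B and 8 in the input. With both preparations pooled, this is a depth-scaled ratio to input of 57.3 (29.0 to 133). The level was 64.9 RPM in A, 141 in B and 1.87 in the input. The uncharacterised C330019G07Rik followed with 98, 204, 258, 604 and 8 reads in the same order (A, A, B, B, input), a ratio of 49.1. Dusp5, a phosphatase that inactivates ERK kinases, had 79, 147, 272, 525 and 9 reads. Wdr43, a factor of ribosome biogenesis, had 74, 153, 171, 379 and 7. In every one of these promoters all 4 ChIP libraries were far above the input in RPM, and both libraries of B were above both of A. Lrrk1, a protein kinase, had 77, 120, 136, 314 and 2 reads and a ratio of 109 (30.1 to 903), a wide interval because the input held only 2 reads. Itgav, the integrin alpha V chain, had 80, 117, 135, 306 and 3 reads, a ratio of 71.7 (24.4 to 349). Arpc4, a subunit of the actin-nucleating Arp2/3 complex, had 53, 125, 127, 282 and 3, a ratio of 66.0 (22.5 to 321). All 7 of these promoters passed with GC-scaled expected reads.

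The CpG-poor promoters were ranked in the same way among those with at most 10 input reads, and of the first 15 the genes described here and 2 given later, Lilrb3 and Btk, were chosen after their values were seen. The others of the 15 were Gm10720, which ranked first, A430084P05Rik, Rwdd3, Gm10384, Gusb and Orai3. Fgd2, a guanine nucleotide exchange factor of antigen-presenting cells, had 37 and 62 reads in A, 51 and 110 in B and 0 in the input, and its window holds GAGGAAGT. Alox5ap, which presents arachidonic acid to 5-lipoxygenase, had 47 and 52 reads in A, 135 and 174 in B and 7 in the input. S100a4, a calcium-binding protein, had 34, 64, 43 and 79 reads and 7 in the input. These levels were above the input in all libraries, and at S100a4 the preparations were close, at 17.2 RPM in A and 17.5 in B. Bin2, a membrane-shaping protein of leukocytes, had 30, 45, 82, 131 and 7 reads, and Clec10a, a macrophage lectin, had 24, 46, 22, 51 and 2. Pf4, the platelet chemokine, had 18, 33, 32, 50 and 3. Vav1, the exchange factor that couples haematopoietic receptors to Rac, had 17, 33, 58, 115 and 4. The word lay in the windows of S100a4, Bin2, Clec10a, Pf4 and Vav1 but not in that of Alox5ap.

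The promoter of Lilrb3, an inhibitory leukocyte receptor, went by library number. It held 0 reads in the first library of each preparation, 56 and 61 in the second libraries and 0 in the input. Across all occupied sites 8 had no reads in both first libraries and at least 20 in the second libraries, and 0 had the reverse. At these 8 sites the occupancy therefore rests on libraries A2 and B2, and whether a step of alignment or filtering differed between the sequencing runs was not tested.

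The known PU.1 targets of myeloid and B cells were occupied in part. Of 27 listed genes, 10 were occupied at the promoter (9 with GC scaling), against 12.8% of all genes (4.56% with GC scaling). The median ratio of reads to expected reads over the list was 2.19 in A and 2.95 in B, against 0.979 and 1.54 over all genes. Btk, the kinase of B cell receptor signalling, had 20, 31, 18, 38 and 0 reads, a pooled ratio of 12 to an assumed input of 3 reads. Its ratio of reads to the expected reads of the call was 9.20 in A and 7.53 in B. Fcgr2b, the inhibitory receptor for IgG, had 21, 32, 16, 36 and 3, a ratio of 11.8 (3.93 to 58.2). Cebpa, the granulocyte transcription factor, had 2, 12, 14, 18 and 0, and was called but not with GC scaling. In RPM the preparations overlapped at Btk, both libraries of A lay above both of B at Fcgr2b, and library A1 stood below the others at Cebpa. Il7r, the receptor of interleukin 7, had 7, 13, 8, 12 and 2 reads (ratio 6.75, 1.75 to 57.6), and Fcgr1, the high-affinity IgG receptor, had 15, 15, 11, 12 and 4. The other occupied members included Ncf1 and Ncf4, subunits of the phagocyte NADPH oxidase, Itgb2, the beta 2 integrin chain, and Csf2rb, the common chain of the GM-CSF and interleukin 3 receptors. The 17 members not called included Csf1r, the receptor of M-CSF, with 0, 2, 3, 4 and 1 reads, Itgam with 0, 1, 0, 2 and 1, and Cd14 with 0, 4, 0, 0 and 0.

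Of the 15 ETS family genes, relatives of PU.1 itself, 5 promoters were occupied (3 with GC scaling), against 12.8% and 4.56% of all genes. Elf2 was highest, with 17, 23, 31, 81 and 3 reads and a ratio of 17.1 (5.74 to 83.8). Elf1 had 4, 10, 18, 14 and 1, and Fli1, an ETS factor that is itself a target of leukemia virus insertion, had 11, 9, 18, 21 and 5, a ratio of 3.98. The Ets1 promoter with 10, 4, 8, 22 and 4 reads and the Elk1 promoter with 7, 5, 1, 12 and 2 reads did not pass with GC scaling, and at Ets1 the smaller of the preparations' ratios to the GC-scaled expectation was 0.936. When sites anywhere in the gene and its 2 kb flanks were counted, 11 of 15 ETS genes (73.3%) had a site, against 3689 of 22359 genes (16.5%). By the same count, sites were found in 13 of 22 genes of PI3K-Akt signalling (59.1%), 11 of 21 of the Ras-ERK pathway (52.4%), 11 of 26 of the G1 phase and E2F family (42.3%), 5 of 14 erythroid regulators (35.7%), 5 of 18 of the JAK-STAT pathway (27.8%), 7 of 27 myeloid and B cell targets (25.9%), 1 of 18 of globin and heme synthesis (5.56%) and 1 of 26 of other tissues (3.85%). Etv6 had 5 sites. Fli1 had 2 intronic sites, with 7, 13, 12, 15 and 1 reads at the summit printed above and with 2, 13, 13, 10 and 1 at the other. Longer genes hold more bins, and gene length was not matched in these shares. The p-values of the exact Poisson test were adjusted over 5309802 bins for sites and over 45961 TSS windows for promoters. Counts of sites and of occupied promoters therefore do not rest on an equal threshold. For example, Ncf1, Ncf4, Itgb2, Csf2rb, Ldb1 and Myb had an occupied promoter but no site.

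Of 14 listed erythroid regulators, 4 were occupied at the promoter (28.6%; 1 with GC scaling), against 12.8% of all genes (4.56% with GC scaling). Gfi1b, a repressor that erythroid cells and megakaryocytes need, had 12, 17, 17, 28 and 2 reads, a ratio of 12.5 (3.33 to 105), and passed with GC scaling. Ldb1, a cofactor of GATA-1 complexes, had 5, 20, 9, 29 and 7, and Tfrc, the transferrin receptor, had 7, 12, 19, 34 and 6. Myb, a factor of immature progenitors, had 6, 10, 5, 11 and 5 reads, with adjusted p of 0.010 in A and 0.019 in B by the exact Poisson test. At Ldb1 and Myb the smaller ratio to the GC-scaled expectation was 0.616 and 0.414. The erythroid factor Klf1 had 0, 2, 4, 4 and 6 reads and was not called. Epor, the erythropoietin receptor, with 0, 7, 1, 11 and 6, and Bcl11a, a repressor of embryonic globin, with 0, 1, 1, 2 and 1, were not called either. The study reported PU.1 at Klf1, Epor and Myb by ChIP-Seq and qChIP, close to the start or inside the gene. The lack of a call here does not show that Klf1 and Epor are unbound. The annotated promoter of Gata1, with 1, 0, 0, 2 and 3 reads, was not called, but a site 161 bp from another start of Gata1 had 9, 19, 13, 29 and 1 reads. Cbfa2t3, a corepressor partner of TAL1, had a site 1582 bp upstream of its start with 38, 72, 137, 238 and 11 reads, while the promoter window at that start had 0, 1, 12, 22 and 19. Lmo2, the bridging protein of the same complexes, had the intronic site printed above, with 8, 12, 5, 11 and 0 reads.

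The genes of globin and heme synthesis gave 1 called promoter of 18, against 12.8% of all genes. It was that of Fech, the enzyme that inserts iron into heme, with 3, 5, 9, 16 and 1 reads, and it did not pass with GC scaling. The site counted for this list lay in an intron of Alas2, the erythroid enzyme that starts heme synthesis, which overlaps Apex2, with 4, 9, 12, 22 and 1 reads, and it did not pass with GC scaling either. The median ratio over this list was 0.555 in A and 0.903 in B. Hba-a1 and Hba-a2, the adult alpha globin genes, had 0 reads in every library, input included, and since the authors kept only unique alignments, occupancy at these near-identical copies was not measured. Both genes are nevertheless among the 18 counted for promoters and sites and in the median ratios of this list.

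**Figure D4:**
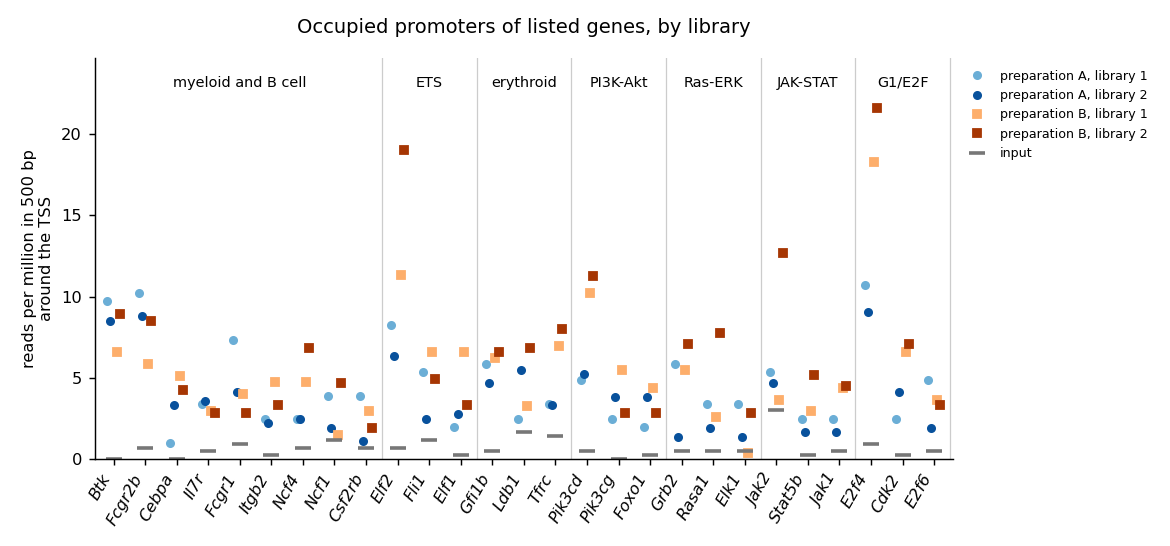
RPM in the 500 bp around the TSS (y axis) of occupied promoters of the listed genes (x axis, grouped by list), with points for each PU.1 library and a grey bar for the input. Both libraries of B lie above both of A at Elf2 and E2f4, while at Btk the preparations overlap.

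Of 22 genes of PI3K-Akt signalling, 6 promoters were occupied (2 with GC scaling), against 12.8% and 4.56% of all genes. Median GC content over this list was 65.9%, and of all CpG-rich promoters 24.9% were occupied (8.06% with GC scaling). Pik3cd, the leukocyte catalytic subunit of PI3K, had 10, 19, 28, 48 and 2 reads, a ratio of 17.7 (4.78 to 148). Pik3cg, the catalytic subunit under G protein control, had 5, 14, 15, 12 and 0 reads, a pooled ratio of 5.17 to an assumed input of 3 reads. The forkhead genes Foxo1 with 4, 14, 12, 12 and 1 reads and Foxo3 with 5, 12, 6, 20 and 2, and Pik3r2, a regulatory subunit, with 7, 11, 10, 20 and 4, passed without GC scaling only. The promoter window of the kinase gene Akt1 had 9, 13, 23, 51 and 17 reads and was called in B only. A site 34 bp downstream of an Akt1 start, with 18, 20, 49, 97 and 12 reads, was called in both preparations but not with GC scaling.

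Of 21 genes of the Ras-ERK pathway, 4 promoters were occupied (19.0%; 1 with GC scaling), against 12.8% and 4.56% of all genes. Median GC content over this list was 72.4% against 57.2% over all genes. Of all CpG-rich promoters 24.9% were occupied (8.06% with GC scaling). Grb2, the adaptor that recruits SOS to receptors, had 12, 5, 15, 30 and 2 reads, a ratio of 10.5 (2.78 to 88.3). Rasa1, a Ras GTPase-activating protein, had 7, 7, 7, 33 and 2 reads. At Rasa1 library B2 stood above the other 3 libraries, whose reads were equal in number. Dusp6, an ERK phosphatase, had the site beyond its 3′ end printed above, with 5, 18, 9, 18 and 0 reads.

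In the JAK-STAT pathway 4 of 18 promoters were occupied and 0 of them passed with GC scaling, where the shares of all genes were 12.8% and 4.56%. Median GC content over this list was 63.5%, and of all CpG-rich promoters 24.9% were occupied (8.06% with GC scaling). Jak2, the kinase of the erythropoietin receptor, had 11, 17, 10, 54 and 13 reads, and its smaller ratio to the GC-scaled expectation was 0.558. Stat5b had 5, 6, 8, 22 and 1 reads and Jak1 had 5, 6, 12, 19 and 2. Pias1, an inhibitor of STAT signalling, had 1, 8, 15, 14 and 1.

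Among 26 genes of the G1 phase and the E2F family, 8 promoters were occupied (2 with GC scaling), against 12.8% and 4.56% of all genes. Median GC content over this list was 64.8%, and of all CpG-rich promoters 24.9% were occupied (8.06% with GC scaling). E2f4, an E2F that acts mainly in repressor complexes, had 22, 33, 50, 92 and 4 reads, a ratio of 16.6 (6.39 to 61.6), and passed with GC scaling. Cdk2, the kinase partner of cyclin E, had 5, 15, 18, 30 and 1, a ratio of 22.9 (3.98 to 919), and also passed. E2f6 had 10, 7, 10, 14 and 2 reads, Tfdp2, a dimerisation partner of E2F, had 7, 11, 10, 27 and 3, and E2f5 had 6, 7, 10, 24 and 2. Among the genes of this list that the study examined by qChIP, the promoter windows of E2f1, Skp2, Ccne2 and Ccnd3 were called in B only, and those of E2f2, Ccnd2 and Cdkn1a in neither. Some of these genes had sites called in both preparations outside that window. E2f1 had a site 212 bp downstream of a start with 1, 20, 20, 43 and 3 reads. Ccnd2 had a site 735 bp upstream with 3, 12, 10, 11 and 1 reads. The site of Skp2 was intronic, 17246 bp downstream of the start, with 6, 23, 10, 12 and 1 reads. At Ccne2 sites 102 and 750 bp upstream of a start had 5, 11, 8, 25 and 3 and 1, 9, 4, 17 and 1 reads, and these did not pass with GC scaling.

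A list of 26 genes that the study examined by qChIP held 10 occupied promoters (5 with GC scaling), against 12.8% and 4.56% of all genes. Median GC content over this list was 62.5%. The 26 include Myog, which served the study as a negative control and had no site here. When sites anywhere in the gene and its 2 kb flanks were counted, 16 of the 26 (61.5%) had a site, against 16.5% of all genes. The list leaves out Mxi1, Dnmt3a, Mta3 and Gpr149, also examined there, and Tada3l, whose name was not matched. The study chose these genes on these samples, so that their count is not independent. By qChIP the study reported PU.1 at most of the genes it examined in MEL cells. A gene without a call here is therefore not shown to be unbound. Hipk1, a kinase, was highest with 20, 53, 57, 103 and 5 reads, followed by E2f4 and by Brf1, a subunit of the RNA polymerase III factor TFIIIB, with 19, 28, 47, 70 and 7. Uhrf2, a ubiquitin ligase that binds modified DNA, had 16, 17, 26, 64 and 9.

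Genes listed for other tissues and olfactory receptor genes were rarely called at the promoter, and whether these cells express them was not measured. Median GC content was 57.1% over the former and 38.8% over the latter, and of all CpG-poor promoters 1.66% were occupied. Of 26 genes of other tissues, such as those of muscle, liver and skin, 0 were called in both preparations (also 0 with GC scaling), 1 in A and 3 in B, where the shares of all genes were 12.8%, 13.4% and 36.7%, with median ratios of 0.729 and 0.809. Among 1113 olfactory receptor genes 2 were called in both (0.180%; 1 with GC scaling), Olfr49 with 4, 2, 3, 5 and 0 reads and Olfr204 with 0, 5, 1, 4 and 0. The keratin gene Krt5 had a site near its 3′ end with 16, 24, 25, 20 and 3 reads, although its promoter had 0, 1, 1, 2 and 5. Of 85 genes matched as ribosomal protein genes, by a name pattern that also takes Rps19bp1, 25 promoters were occupied (18 with GC scaling), against 12.8% and 4.56% of all genes, among them Rpl35a with 21, 40, 45, 58 and 5 reads.

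Distal sites were dominated at the top by windows with many input reads. Of the 12 distal sites with the largest excess over input, 10 had over 10 input reads and 8 had over 50, against 47 of 3372 distal sites with over 10. These 12 lay nearest to or in Gm5614, Pgk2 (2 sites), 1700012B15Rik, Cdk5rap2, Axin2, Kctd16, Rpp21, 2210408I21Rik, Stmn2, Cdk8 and Trpv4. The first, 23541 bp upstream of Gm5614, had 2198 and 2944 reads in A, 3656 and 2629 in B and 945 in the input, a ratio of 4.08. The sites at Pgk2 and Rpp21 did not pass with GC scaling. The part of the high input in these sites was not tested.

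Some of the strongest distal sites had a low input. The site 9221 bp upstream of Trpv4, a cation channel gene and the last of those 12, had 78, 126, 162, 308 and 3 reads, a ratio of 75.8 (25.8 to 368), and the 120 bases around its summit hold GGAA but not GAGGAAGT. The Osbpl6 intron had 61, 103, 85, 144 and 3 reads, a ratio of 44.2 (15 to 215). The site 22290 bp upstream of Mlana had 68, 140, 66, 119 and 4 reads, a ratio of 33.1. All 4 libraries were above the input at these sites, and at Mlana the counts of B were not above those of A although B was sequenced more deeply. The site 18883 bp upstream of Alox5ap had 55, 92, 100, 190 and 8 reads, so that this gene had both an occupied promoter and an upstream site. The Tbc1d14 intron had 51, 85, 73, 109 and 7.

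At the Sfpi1 locus, which encodes PU.1, none of the 3 annotated starts was occupied, with 1, 7, 4, 4 and 2 reads at the first, 2, 7, 1, 7 and 4 at the second and 1, 6, 4, 4 and 3 at the third. A site in the intron 0.694 kb from the first start and 13.0 kb upstream of the second start had 7, 16, 32, 64 and 4 reads. Both primers that the study used for the upstream regulatory element (URE) of Sfpi1 match within the 120 bases printed for this site, at chr2:90923214-90923232 and chr2:90923281-90923299, so that the site lies at the URE. The site at the promoter of Slc39a13, a zinc transporter gene 25.4 kb upstream of the same start, had 20, 65, 102, 201 and 5 reads.

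Both preparations gave reads at each other's sites. Bins called in A held a median of 23 reads of B, 17.5 times the genome mean of 1.32, and 97.2% of them had at least 2 times that mean, against 15.5% of all bins. Bins called in B held a median of 10 reads of A, 9.32 times the mean of 1.07, and 93.2% had at least 2 times the mean, against 11.9% of all bins. Calls themselves share the input: B called 79.0% of the bins of A, and A called 31.6% of those of B. The bins that B alone called had a median GC content of 62.6%, 64.9% of them lay at promoters and 11.7% held GAGGAAGT. Bins that A alone called had 44.6% GC, 12.4% at promoters and 30.7% with the word, close to the 32.1% of bins called in both.

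The level at promoters was related between the preparations, with a Pearson correlation of 0.862 over 22359 genes on the scale of log2 of RPM plus 0.5. Libraries of the same preparation gave 0.708 in A and 0.853 in B, and libraries of different preparations gave 0.714 to 0.814. At occupied distal sites the correlation was 0.880 over 3372 sites and at promoter sites 0.873 over 2260. Between single libraries at distal sites, those of the same letter gave 0.645 in A and 0.744 in B. Those of the same number gave 0.715 for A1 with B1 and 0.820 for A2 with B2. The remaining pairs gave 0.678 for A1 with B2 and 0.730 for A2 with B1. The libraries differ in depth, and whether the letter or the number marks the preparation was not tested. The points share depth and base composition, and the correlations are descriptions. With the input, the level at promoters had a correlation of 0.557 in A and 0.612 in B, and the level at promoter sites one of 0.674 and 0.634. At distal sites these were 0.622 and 0.606.

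Preparation B was higher than A at promoters. The median ratio of B to A, in RPM, was 1.51 at promoter sites and 1.02 at gene body and at intergenic sites, and 83.3% of promoter sites against 53.2% of distal sites were higher in B. By limma over the 4 libraries, 281 of 5632 sites (4.99%) differed, of which 280 (4.97%) were higher in B and 1 (0.0178%) in A. Of the 281, 233 were promoter sites. Their median GC content was 65.2% against 49.2% at the other sites, and the part of GC content in the difference was not tested. When the libraries were scaled by their median ratio at the occupied sites instead of by total reads, 46 sites passed, all 46 higher in B. Without library A1, A2, B1 or B2 the number was 21, 3, 498 and 37.

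**Figure D5:**
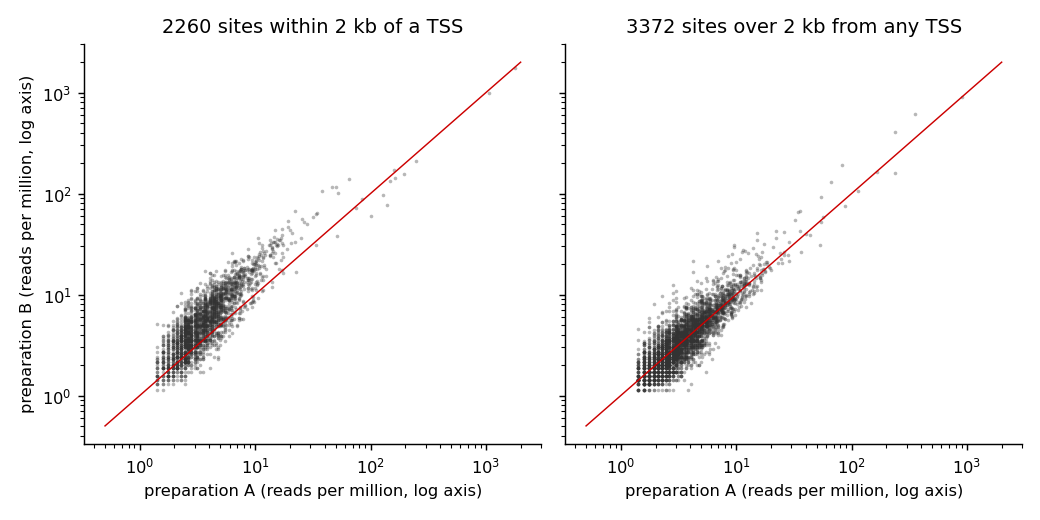
RPM of each occupied site in preparation A (x axis, log) and preparation B (y axis, log), with 2260 sites within 2 kb of a TSS on the left and 3372 other sites on the right, and a red line at equal levels. Of the sites near a TSS 83.3% lie above the line, against 53.2% of the others.

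The largest differences between the preparations lay at sites of a moderate level. A site 17120 bp upstream of Ptma, the gene of prothymosin alpha, had 9 and 15 reads in A and 50 and 100 in B, a log2 ratio of 2.25 (SE 0.36, limma adjusted p = 0.0002). A site 505 bp from the start of Ppa2, a mitochondrial pyrophosphatase gene, had 8, 13, 39 and 81 reads (2.12, SE 0.38), and a site in a coding exon of Prox2, a homeobox gene, had 5, 11, 34 and 52 (2.06, SE 0.43). Both libraries of B lay above both of A at each of these 3 sites, and the input had 1 or 2 reads. The only site that passed as higher in A lay 34558 bp upstream of Fam50b, with 11 and 20 reads in A, 5 and 7 in B and 0 in the input, a log2 ratio of -1.61 (SE 0.51, limma adjusted p = 0.049). The intronic site of Sfpi1 was also higher in B (1.70, SE 0.38, limma adjusted p = 0.0042), as was the site at Slc39a13 (1.60, SE 0.30). The spread that limma used is that between libraries of a preparation, so that these p-values do not measure how further preparations would vary. At sites with at least 20 reads in the pair compared, the mean chi-square per site is 1 for counting error alone. It was 2.85 between the libraries of A (2783 sites), 3.09 between those of B (4020 sites) and 3.93 between A and B (5518 sites). Where spread exceeds counting error this value grows with the number of reads, so that these values do not rank the spreads.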

How the data were processed

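Libraries were sequenced on an Illumina Genome Analyzer II and aligned with ELAND, whose version is not given in the sources used here, to mm9 (the build in the submitters' processing notes). The deposited files hold, per the file contents, the positions of aligned reads, each on a line of its own, which the authors kept where the alignment was unique with up to 2 mismatches, and no measured value, so that every count of reads was made here. Of 2000 reads checked in each library, 99.95 to 100% matched NCBIM37 with starts counted from 1. Reads outside chromosomes 1 to 19, X and Y were left out of the calls, which leaves 2054667 to 4251805 reads in a ChIP library and 4278560 in the input, and a ratio with few input reads has a wide interval.

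Reads were expected in a window at the highest of 5 rates, those of the input, scaled for depth, in the window and in surroundings of 1, 5 or 10 kb, and that of the genome as a whole, and calls used a one-sided exact Poisson test with Benjamini-Hochberg adjustment over all windows. Lists of genes, words and the rule for named genes (the 12 strongest promoters and distal sites, up to 5 genes of a list with the genes of the study's qChIP, and the 3 sites furthest apart in each direction between preparations) were chosen with earlier results of these data known. Genes named outside the rule were chosen after their values were seen, and some genes and a sequence are not reported here. TSS came from GENCODE vM1 on NCBIM37. The libraries of a preparation were summed, and A and B were compared with limma 3.58.1 (voom, two-sided moderated test) in R 4.3.3. Python 3.11.15, numpy 2.4.6, scipy 1.17.1, pandas 2.3.3 and matplotlib 3.10.9 were used. On simulated reads the promoter call found 2%, 48%, 88% and 100% of changes of 2, 4, 8 and 16-fold. It called 0 of 45761 unchanged windows. With limma, 44%, 98% and 100% of sites made 2, 4 and 8-fold higher in B were found, and 40% of those made 4-fold lower in B. For limma the fold was put on the reads of B only, so that sites made lower held fewer reads. Both simulations drew counting error alone around known expected values, whereas the libraries spread more and the single input has error of its own. These shares therefore do not measure the rates of false or missed calls in these data. Alternatives covered the reads counted, the shift, the expected value, scaling, GC content, thresholds, windows, left-out libraries and preparations, and the test. Those that leave out windows of over 10 input reads and the scaling by median ratio at the sites were added after the data were seen.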

Additional observations from a re-analysis of the deposited data

Results flagged for a closer look

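The preparations differed from each other at occupied sites. By limma over the 4 libraries 281 of 5632 sites passed, 280 of them higher in preparation B and 1 in A, and 233 of the 281 lay at promoters. The number was 21, 3, 498 and 37 without library A1, A2, B1 or B2 and 46 with median-ratio scaling, and the spread in this test is that between libraries of the same preparation. On simulated reads this test found 98% of sites made 4-fold higher in B and 40% of those made 4-fold lower. The fold was put on the reads of B only, so that the sites made lower held fewer reads. Power by direction was therefore not compared at equal read numbers. Median GC content was 65.2% at these sites and 49.2% at the others, median levels were 5.79 RPM in A and 15 in B, and the part of GC content in the difference was not tested.

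Reads on unplaced sequence (chrUn), which no comparison used, made up 0.451% of the first library of preparation A and 0.536% of the first library of B, against 0.190% of the input. The second libraries of both preparations list no reads there or on the mitochondrial genome.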

How the results depend on the processing

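Of 6031 bins called, 4859 remained in number with GC-scaled expected reads, and 4498 were shared. The number was 9172 without the wide input windows, 24256 with the preparations summed, 15016 when windows under 10 ChIP reads were left out before adjustment, 19061 without preparation A, and 1999 to 5114 without a library (A2 lowest, B2 3697). Of 2860 promoters, 1019 passed with GC scaling (997 shared), 7888 with the preparations summed, 8214 without preparation A, 57 with limma against the single input (2202 at an unadjusted p below 0.05), and 1189 to 2771 without a library (A2 lowest). Of the 46 occupied genes among the 192 of the hand-written lists, the count was 19 with GC scaling, 93 with the preparations summed, 95 without preparation A, 1 with limma and 28 to 46 without a library (A2 28, A1 30). The share of promoter sites, 40.1%, was 36.3% at 1 kb and 26.8% with GC scaling. The correlation between the preparations, 0.862, was 0.810 and 0.887 with pseudocounts of 0.1 and 2 and 0.824 by Spearman, and GAGGAAGT lay in 43.9% of distal sites in 200 bp. Leaving out windows of over 10 input reads gave 5908 bins, 2822 promoters and 46.5% of distal sites with the word. With GC scaling the smaller ratio of the preparations fell below 1 at the promoters of Ets1 (0.936), Jak2 (0.558), Foxo3 (0.921), Ldb1 (0.616) and Myb (0.414) and at the sites at Pgk2 (0.777 and 0.971) and Rpp21 (0.989). Without a library the ratio was 0 (without A2 or B2) to 44.4 at Lilrb3 and 0.842 (without B2) to 4.70 at Elk1. The cause of these changes was not tested.

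The 281 sites that differed between the preparations were 494 with the library number as a replicate block, 46 with median-ratio scaling and 3 to 498 without a library. Library numbers did not pair the samples by any label, and the deviations of A1 and B1 correlated at 0.143 over 5632 sites with only 2 pairs. No paired analysis was possible because there is a single input for the comparison of ChIP with input.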

Other observations

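Beyond the genes named by rule, these promoters and sites were picked after their values were seen, and each value series runs from the libraries of A through those of B to the input. Among the next promoters by excess over input, the head-to-head genes Tatdn1 and Ndufb9, the latter a subunit of respiratory complex I, shared their reads, with 48, 104, 118, 244 and 4 in the window of Tatdn1. Arpp19, an inhibitor of the phosphatase PP2A in mitosis, had 51, 86, 129, 281 and 3 reads, and Kif3b, a kinesin motor subunit, had 46, 70, 107, 180 and 1. Sbno2, a corepressor gene, had 48, 66, 110, 191 and 1 reads, a ratio to input of 140 (25 to 5542) that is wide because the input held 1 read. All of these passed in both preparations, with B above A in RPM.

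Sites with the PU.1 word inside signalling genes were of a moderate level and near equal in the preparations. Ptpn11, the phosphatase SHP2, had an intronic site with 4, 23, 9, 14 and 1 reads, and Grb2 had an intronic site with 6, 16, 15, 17 and 1. Etv6, an ETS repressor, had an intronic site with 8, 12, 10, 20 and 4 reads, and Cyba, the small subunit of the phagocyte NADPH oxidase, had an intronic site with 11, 12, 8, 17 and 4 although its promoter was called in B only. By limma none of these 4 sites differed between the preparations, with log2 ratios of B to A from -0.33 to 0.26 and adjusted p from 0.90 to 0.96. A p of this size does not show that the preparations were equal there.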
